A study of Mus musculus with 18 samples.

Results

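The genes of the interleukin-6 cytokine family were examined for accessible chromatin in the mouse retina. They were the 5 ligands Lif, Osm, Cntf, Il6 and Il11 and the 5 receptor genes Il6st, Lifr, Osmr, Cntfr and Il6ra, 10 of the 21938 protein-coding genes of the annotation. Their peaks were those that overlapped a window from 10 kb upstream of the gene start to the gene end (mm10, GENCODE M21), which gave 427 of the 911837 peaks listed. Peaks of all libraries that overlapped were merged, and 35 of the 73567 regions shared by 2 or more libraries (consensus regions) lay in these windows, with 13 further stretches that had a peak in 1 library.

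Accessibility was measured by ATAC-Seq, in which a transposase inserts adapters into open chromatin, in 18 libraries of bulk retina from wild-type mice, in 6 groups of 3. Mice were 3 or 18 months old. At either age 1 group held retinas of eyes that had been put under raised intraocular pressure (IOP, 30 mmHg during 1 hour), 1 held the contralateral eyes of mice so treated (both labelled day 2, although the study's text gives a later day), and 1 held untreated mice. The labels do not place any library in a drug arm, although their shared protocol text describes dasatinib or vehicle injections after IOP. They do not say which contralateral and IOP retinas came from 1 mouse, and the p-values measure the spread between the retinas as labelled. Each library had its own peak list, of 36011 to 66160 peaks. Untreated libraries had a shortest peak of 79 to 89 bp, whereas contralateral and IOP libraries had 114 to 157 bp. The kind of control therefore cannot be told apart from this difference between the lists, whose source was not tested. Promoters of all 5 rod photoreceptor markers were called in all 18 libraries. Those of 4 of 5 microglial and 3 of 3 endothelial markers were called in none, and the fifth microglial marker, Tmem119, was called in 2. Of the Müller glia markers, Glul was called in 18, Slc1a3 in 11, Rlbp1 in 8 and Aqp4 in 0 libraries. In bulk tissue, a change within a cell type and a change in the number of its cells cannot be told apart.

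Cytokines of this family are secreted proteins that signal through receptor complexes sharing gp130, the product of Il6st. IL-6 and IL-11 first bind the non-signalling receptors IL-6R (Il6ra) and IL-11R, whereas LIF, oncostatin M and CNTF recruit gp130 together with the LIF or oncostatin M receptor, CNTF with the help of the receptor encoded by Cntfr. The complexes activate JAK kinases and STAT3. In the retina, LIF and CNTF are known as injury signals that act on Müller glia and photoreceptors.

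The regions are named by their gene and numbered along the chromosome. The letters of the regions on which the comparisons turn are given here, as the 200 bp around the median summit on the plus strand of mm10, none of them in an annotated exon. Lifr 1 and Lifr 7 are shown because they had the largest rank differences upon IOP, and Lifr 9, Cntfr 1 and Cntfr 6 because they were called in all libraries of one group and none of another. Capitals mark a match on either strand to TAATCC (Crx and Otx2, photoreceptor transcription factors), TAATTA (other homeodomain factors), TTCNNNGAA (STAT), TGANTCA (AP-1), GGNNNTTCC (NF-kB) or the CTCF motif, and a TAATCC match on the minus strand reads GGATTA.
Lifr 1 (chr15:7088628-7088827): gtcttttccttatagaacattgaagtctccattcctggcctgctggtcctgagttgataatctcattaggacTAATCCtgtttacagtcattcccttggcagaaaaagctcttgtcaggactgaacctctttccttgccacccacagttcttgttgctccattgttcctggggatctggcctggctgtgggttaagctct
Lifr 7 (chr15:7152240-7152439): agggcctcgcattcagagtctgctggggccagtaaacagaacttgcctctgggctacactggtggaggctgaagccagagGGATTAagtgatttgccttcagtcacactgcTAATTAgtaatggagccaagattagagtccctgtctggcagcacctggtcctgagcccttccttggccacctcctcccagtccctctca
Lifr 9 (chr15:7169490-7169689): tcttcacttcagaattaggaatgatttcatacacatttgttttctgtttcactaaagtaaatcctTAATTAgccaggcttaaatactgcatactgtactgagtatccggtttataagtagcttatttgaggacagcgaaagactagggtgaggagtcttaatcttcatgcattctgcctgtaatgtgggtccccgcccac
Cntfr 1 (chr4:41665268-41665467): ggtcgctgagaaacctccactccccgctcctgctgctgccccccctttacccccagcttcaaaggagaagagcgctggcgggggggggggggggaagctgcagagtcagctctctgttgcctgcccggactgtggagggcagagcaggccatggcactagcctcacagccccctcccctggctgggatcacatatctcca
Cntfr 6 (chr4:41694516-41694715): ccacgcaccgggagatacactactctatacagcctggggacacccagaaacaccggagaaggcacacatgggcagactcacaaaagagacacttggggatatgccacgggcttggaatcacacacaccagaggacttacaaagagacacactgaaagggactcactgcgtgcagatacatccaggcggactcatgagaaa

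For the promoters, the 200 bases just upstream of the RefSeq start are shown on the strand of the gene for a receptor with a peak in every library (Il6st) and for 2 ligands without a promoter peak in any (Il6, and Il11 at the inner of its 2 starts). Il6 carried a match to the NF-kB motif and Il11 a match to the AP-1 motif, which 13.1% and 5.48% of the 32851 RefSeq promoters of this length also held. Il6st had no match to the searched motifs.
Il6st (chr13:112463870-112464069, plus strand): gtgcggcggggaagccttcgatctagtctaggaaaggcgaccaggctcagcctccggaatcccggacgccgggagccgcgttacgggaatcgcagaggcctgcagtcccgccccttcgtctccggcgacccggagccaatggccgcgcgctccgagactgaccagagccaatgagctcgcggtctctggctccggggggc
Il6 (chr5:30012914-30013113, plus strand): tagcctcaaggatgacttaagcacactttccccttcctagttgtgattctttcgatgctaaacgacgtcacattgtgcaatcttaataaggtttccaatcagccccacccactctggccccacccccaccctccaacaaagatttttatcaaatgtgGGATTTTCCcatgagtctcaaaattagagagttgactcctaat
Il11 (chr7:4778142-4778341, minus strand): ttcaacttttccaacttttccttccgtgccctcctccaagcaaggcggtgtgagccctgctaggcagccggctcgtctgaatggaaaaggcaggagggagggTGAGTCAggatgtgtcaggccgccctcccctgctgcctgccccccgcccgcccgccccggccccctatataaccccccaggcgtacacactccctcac

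The family fell into members with a promoter peak in every retina and members with none in any. Promoters were windows around the GENCODE starts that took in 1 kb before and 100 bp after each. It was called in all 18 libraries for Il6st, Lifr, Cntfr, Il6ra and Lif, and in 0 libraries for Osm, Cntf, Il6, Il11 and Osmr. Over all protein-coding genes, 51.8% of promoters were called in all 18 libraries and 35.8% in 0. Of the 5 genes with a promoter peak 4 were receptors, and of the 5 without 4 were ligands, among them Il6, the acute inflammatory cytokine, and Osm, a cytokine made mainly by leukocytes. Since it was drawn over all 18 libraries, this split is by definition the same in each of the 6 groups. It rests on the GENCODE starts: by RefSeq starts, Lif was called in 0, Cntfr in 3 and Osmr in 12 libraries.

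Of the ligand windows, 3 held almost no peak. Osm (chr11:4236420-4241026) and Cntf (chr19:12763660-12765632) had 0 peaks in every library and Il6 (chr5:30013114-30019981) had 1 peak in 1 library, 18mo untreated replicate 6 (chr5:30014744-30014837, fold enrichment 5.14 over the local background). Of all protein-coding gene windows, 22.0% had 0 peaks in all 18 libraries. A region that is not called may still be open below the threshold of the peak caller, a q-value of 0.05. The Il11 window held 2 to 4 peaks per library, but both of its regions called in every library belonged to neighbouring genes. Il11 2 (chr7:4788799-4789783) lay in an exon of Tmem238 and Il11 3 (chr7:4792642-4793216) at the promoter of Rpl28, a ribosomal protein gene. The only consensus region within the Il11 gene was Il11 1, in an intron (chr7:4777336-4777449), called in 2 of 3 3mo untreated, 1 of 3 18mo contralateral and none of the other libraries.

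Lif was the ligand with open regions of its own. Lif 1 (chr11:4258605-4259214) lay in an intron 1382 bp past the gene start and Lif 2 (chr11:4266557-4267159) at the promoter of an inner start, 349 bp upstream of it. Both were called in all 18 libraries, with fold enrichments of 5.07 to 10.8 and of 4.39 to 12.6. At the outer start, the only start of Lif in the RefSeq table, the promoter was called in 0 libraries.

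**Figure D1:**
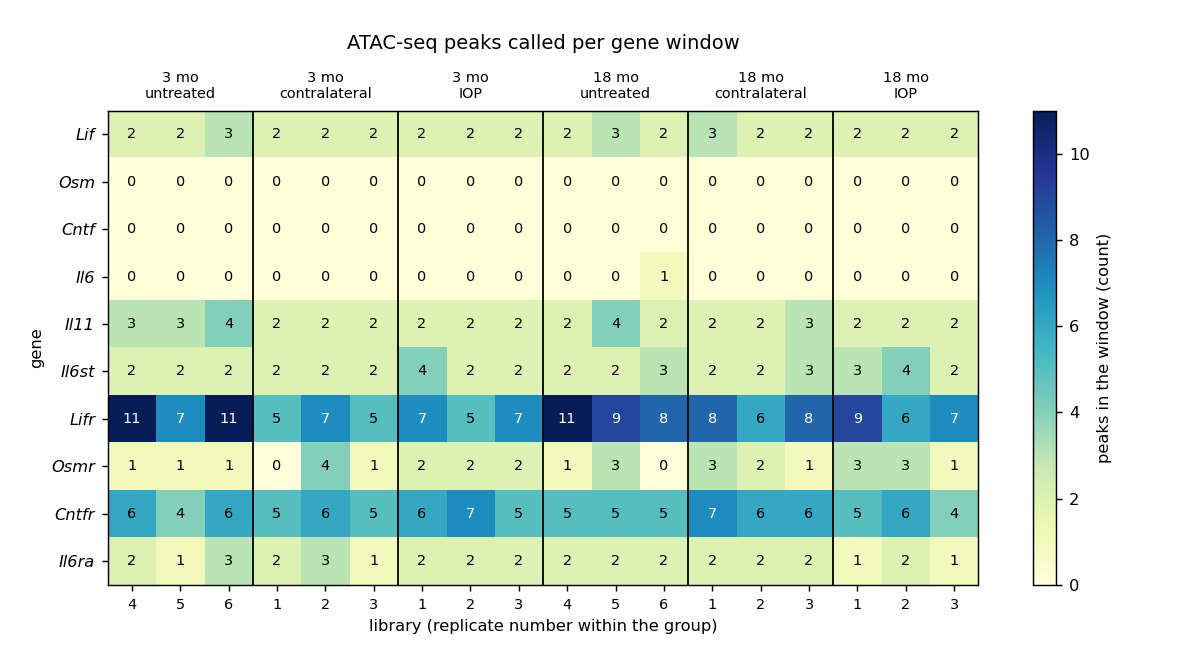
Number of ATAC-Seq peaks in the window of each gene (rows) in each of the 18 libraries (columns, grouped by age and treatment, with the replicate number below). Osm and Cntf stayed at 0, Lifr reached 11 peaks in 3 untreated libraries, and Il11 had 3 to 4 peaks in 3mo untreated and 2 in each 3mo contralateral and 3mo IOP library.

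Among the receptors, Il6st, which encodes the shared signal transducer gp130, had the strongest promoter of the family. Il6st 2 (chr13:112463489-112464701) had its median summit 22 bp upstream of the start, and the −log10 q-value of its peak stood at the percentile 95.4 ± 2.02 (SD, n = 18) among all peaks of the same library. The promoter of Lifr, the LIF receptor, followed with Lifr 3 (chr15:7128677-7130155) at 92.9 ± 2.26. Both were called in every library with a narrow spread. Cntfr 8 (chr4:41697229-41697843), at the upstream start of the CNTF receptor gene, stood at 51.3 ± 16.4, and Il6ra 2 (chr3:89912716-89913470), at the start of the IL-6 receptor gene, at 36.9 ± 18.2. The Il6ra promoter thus was a weak peak whose percentile ran widely between libraries, from 0.964 in 3mo untreated replicate 5 to 70.4 in 3mo contralateral replicate 2. When every list was reduced to its 36011 strongest peaks, it was called in 13 libraries, those of Cntfr in 17 and Lif in 16, and those of Il6st and Lifr still in 18.

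Osmr, the oncostatin M receptor gene, had no peak at its GENCODE start but had a region within exon 1. Osmr 3 (chr15:6873978-6874752) had its median summit 641 bp past that start. It held the start positions of 3 shorter transcripts outside the basic annotation, and its summit lay 15 bp upstream of the RefSeq start of Osmr. By RefSeq starts, the promoter of Osmr was therefore called in 12 of 18 libraries. It was called in 1 of 3 untreated, 1 of 3 contralateral and 3 of 3 IOP retinas at 3 months, and in 1 of 3 untreated, 3 of 3 contralateral and 3 of 3 IOP retinas at 18 months. All 6 IOP retinas thus had a peak there, as did 4 of 6 contralateral and 2 of 6 untreated retinas. Where called, its fold enrichment ran from 3.85 in 3mo untreated replicate 5 to 8.67 in 3mo contralateral replicate 2. Neither age (4 of 6 control retinas at 18 months against 2 of 6 at 3 months, Fisher's exact test, two-sided, p = 0.567) nor the kind of control (2 of 6 untreated against 4 of 6 contralateral, p = 0.567, exact) passed the test, and for IOP the 10 calls among 12 libraries could not reach a p under 0.05.

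CpG counts at the RefSeq starts were higher in the receptor genes than in the ligand genes. RefSeq promoters, counted over 250 bases upstream and 50 downstream of the start, were listed for 9 of the 10 genes, all but Osm. Lifr held 53 CpG, Cntfr 47, Il6st 33, Il6ra 25 and Osmr 22, whereas Il11 held 13, Lif 7, and Cntf and Il6 3 each. Over the 27025 genes of the table, promoters with 20 or more CpG were called in all 18 libraries in 85.8% of genes and in none in 3.27%, and those with 0 to 4 CpG in all in 2.26% and in none in 91.2%. Cntfr stood apart, with 47 CpG at its start of highest CpG count but a peak at its RefSeq starts in 3 libraries only, since its constant promoter peak Cntfr 8 lay at a start of the GENCODE set that was not in the RefSeq table. The count of Lif likewise belonged to its outer start, which had no promoter peak. At its inner start, the 200 bp around the summit of Lif 2, called in all 18 libraries, held 33 CpG. These counts describe sequence and calls side by side.

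**Figure D2:**
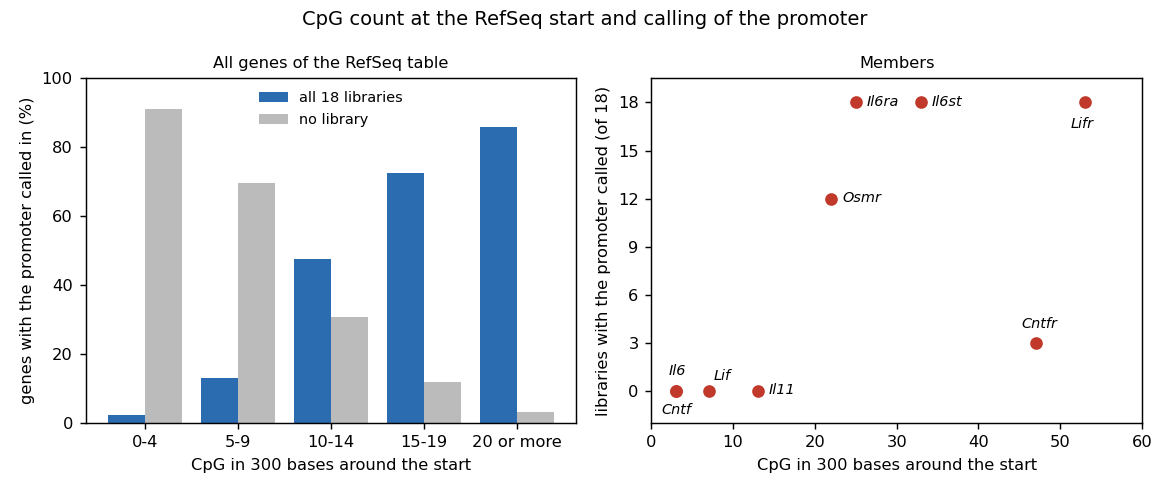
Left, share of all genes (%) whose promoter was called in all 18 libraries (blue) or in no library (grey), by the number of CpG in the 300 bases around the RefSeq start. Right, the same count for 9 members against the number of libraries with a peak at any RefSeq start of the gene. Il6, Cntf, Lif and Il11 sit at 0 libraries with 3 to 13 CpG, and Il6ra, Il6st and Lifr at 18 libraries with 25 to 53 CpG.

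Of the 35 regions, 14 (40.0%) were called in all 18 libraries, beside 33.6% of all consensus regions. The 14 were Lif 1 and 2, Il11 2 and 3, Il6st 2 and 4, Lifr 1, 3 and 7, Cntfr 4, 5, 8 and 9, and Il6ra 2. Il6st 4 (chr13:112509486-112509899) lay in the last exon of Il6st. Lifr 1 (chr15:7088447-7089091) lay 1886 bp upstream of the outermost Lifr start, which belongs to a transcript outside the basic set, and 40831 bp upstream of the nearest basic start. Lifr 7 (chr15:7151970-7152612) lay in an intron 2013 bp upstream of an inner start and stood at the percentile 77.8 ± 6.95. Cntfr 4 (chr4:41683447-41684184) and Cntfr 5 (chr4:41684556-41685221) lay side by side in an intron of Cntfr. Cntfr 9 (chr4:41698490-41698943) lay between Cntfr and Il11ra1, the gene of the IL-11 receptor, whose start was nearer.

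**Figure D3:**
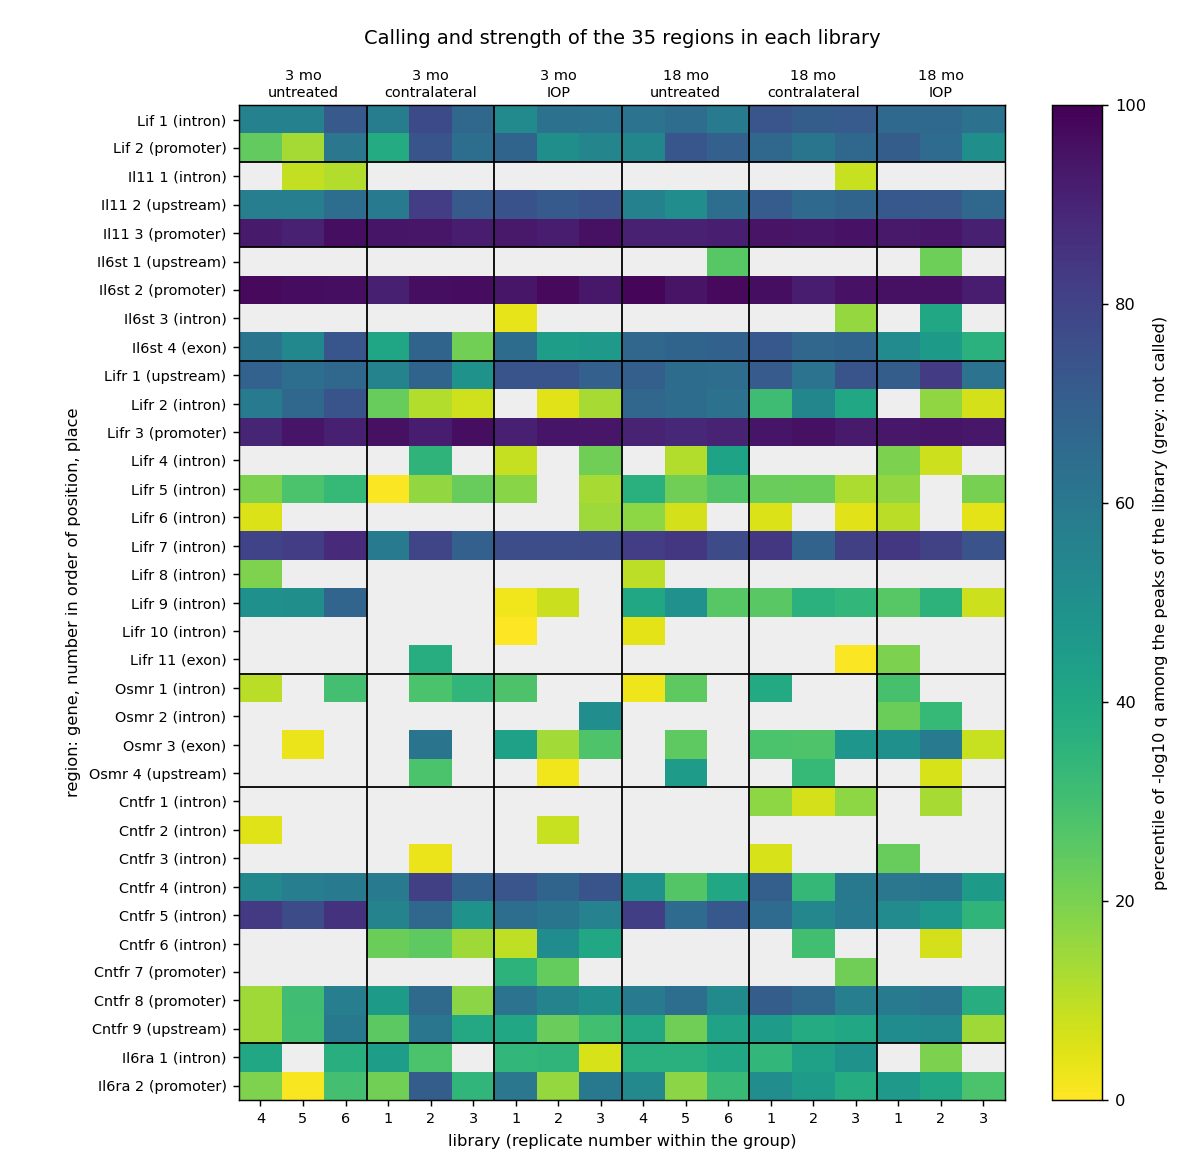
Percentile of −log10 q among all peaks of a library (colour, 0 to 100) for the 35 regions (rows) in the 18 libraries (columns), with grey where a library had no peak. Il6st 2, Lifr 3 and the Rpl28 promoter Il11 3 are dark in every library, and the regions called in few libraries are pale.

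Motif matches are given beside those of all consensus regions. None of the 35 regions held the STAT motif in the 200 bp around its summit, beside 4.40% of 73449 regions. The AP-1 motif was found in 2 regions (5.71% beside 6.60%), both of Osmr, of which Osmr 2 held 2 matches and Osmr 3 held 1. TAATCC was found in 4 regions (11.4% beside 15.4%), namely Lifr 1, Lifr 4, Lifr 7 and Il6ra 1. TAATTA was found in 4 (11.4% beside 4.14%), namely Lifr 6, Lifr 7, Lifr 9 and Cntfr 2. The NF-kB motif was found in 4 (11.4% beside 10.7%) and the CTCF motif in 3 (8.57% beside 6.31%). A match says only that these letters occur in the window.

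To ask whether IOP changed the accessibility of the family, the IOP retinas were compared with the contralateral retinas. No region was gained (3 of 3 IOP and 0 of 3 contralateral) or lost (the reverse) at either age. Over all consensus regions, 0.217% were gained and 0.241% lost at 3 months, and 0.239% gained and 2.23% lost at 18 months. Across both ages, only 2 of the 35 regions had a number of calls that could reach a p under 0.05, Lifr 4 (4 of 6 IOP against 1 of 6 contralateral, p = 0.26, exact test stratified by age, two-sided) and Osmr 1 (2 of 6 against 3 of 6, p = 1.0, exact). Neither passed, with 1.62% of all 5572 testable regions called more often upon IOP and 3.43% more often in contralateral retinas at an unadjusted p under 0.05, and 0 regions past the adjustment. The number of peaks per gene window passed for 0 of the 7 members with a value to test (exact permutation within ages, smallest possible p 0.005). Of 13532 genes, 0.155% had more peaks upon IOP and 1.32% more in contralateral retinas at that threshold, and 0 after the Benjamini-Hochberg adjustment. Summed over the 10 windows, IOP retinas held 23.0 ± 1.73 peaks at 3 months against 20.7 ± 4.62 in contralateral retinas, and 23.0 ± 3.46 against 24.7 ± 2.52 at 18 months (SD, n = 3 each), and the groups overlapped at both ages. The lists differed in length, however. Per 10000 peaks of a list, the 18mo IOP retinas held 5.13, 5.13 and 5.28 peaks in these windows against 4.44, 4.3 and 4.36 in 18mo contralateral retinas, so that the direction turned. At 3 months the IOP retinas held 4.82, 4.93 and 4.94 against 4.59, 3.93 and 4.34. On this scale the groups did not overlap at either age, and no test was made of this sum over members. Regions called in every library count for more on this scale where a list is shorter. The lists held a mean of 44474 peaks in 18mo IOP and 56406 in 18mo contralateral retinas. At 3 months the means were 47010.7 upon IOP and 48953.7 in contralateral retinas. The single 3mo lists held 51818, 44646 and 44568 peaks upon IOP and 39202, 66160 and 41499 in contralateral retinas, in the order given above. Whether list length made the gap was not tested. How often other sets of genes show such a gap is not given here.

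Regions called in every library can still differ in strength, so each was given a rank, its percentile by −log10 q among the 24751 regions called in all 18 libraries. Ranks at 3 of the 14 member regions were higher upon IOP at an unadjusted p under 0.05 and at 0 lower, beside 4.36% and 3.79% of the 24751 regions. They were both distal Lifr regions, Lifr 1 and Lifr 7, and Il11 2 in the Tmem238 exon. None passed the adjustment over all 24751 regions, where 0 regions did and the smallest adjusted p was 0.331.

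Lifr 1 ranked at 46.4, 53.1 and 45.2 in the 3mo IOP retinas and at 30.2, 19.7 and 19.2 in the 3mo contralateral retinas. At 18 months it ranked at 43.2, 64.9 and 45.7 upon IOP and at 31.5, 24.8 and 40.8 in contralateral retinas. The untreated retinas ranked at 39.2, 35.8 and 20.5 at 3 months and at 36.8, 32.4 and 29.3 at 18 months. All 6 IOP retinas thus lay above all 12 control retinas, as they did at 0.291% of the 24751 regions. The mean rank was 49.8 ± 8.15 upon IOP and 27.7 ± 8.22 in contralateral retinas (SD, n = 6 each), a difference of 22.1 (exact permutation within ages, two-sided, p = 0.005, the smallest that the design allows; adjusted p = 0.331). The differences at the 2 ages were 25.2 and 18.9, and they did not differ from each other beyond the permutations (p = 0.71, exact).

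Lifr 7 ranked at 50.9, 57.1 and 58.5 in the 3mo IOP retinas and at 35.3, 45.0 and 48.5 in the 3mo contralateral retinas. At 18 months it ranked at 68.4, 61.5 and 63.1 upon IOP and at 59.8, 34.9 and 55.9 in contralateral retinas. IOP retinas again lay above the contralateral retinas of their age, but the untreated retinas, at 51.3 to 68.7 over both ages, overlapped the IOP retinas. The difference between IOP (59.9 ± 5.93) and contralateral retinas (46.6 ± 10.3, n = 6 each) was 13.4 (p = 0.005, exact; adjusted p = 0.331). Every IOP library lay above every contralateral library at both ages at 0.970% of the 24751 regions, and every contralateral library above every IOP library at 0.541%.

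With fold enrichment in place of −log10 q, the differences of Lifr 1 and Lifr 7 were 19.8 (p = 0.02, exact) and 14.6 (p = 0.04, exact). The shortest peak split the contralateral and IOP libraries into lists with 114 to 122 bp and lists with 148 to 157 bp, with 1 or 2 libraries of a kind in each age and class. Since all IOP retinas lay above the contralateral retinas of their age at Lifr 1 and Lifr 7, the direction within these classes was fixed. Between these regions, the Lifr promoter Lifr 3 had rank means of 88.0 ± 3.38 upon IOP and 87.8 ± 5.42 in contralateral retinas (difference 0.224, p = 0.95, exact). Il6st 2 likewise had means of 90.3 ± 3.06 and 89.1 ± 3.54 (difference 1.23, p = 0.545, exact).

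Il11 2 had rank means of 50.2 ± 3.15 in 3mo IOP and 47.1 ± 9.95 in 3mo contralateral retinas, which overlapped, and of 48.0 ± 3.28 and 29.9 ± 1.9 at 18 months, which did not (n = 3 each). Across ages the difference was 10.5 (p = 0.04, exact permutation; adjusted p = 0.54). It missed 0.05 without 3mo IOP replicate 3 (p = 0.065, exact) or without any single one of the 18mo contralateral replicates (p = 0.115 each, exact).

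**Figure D4:**
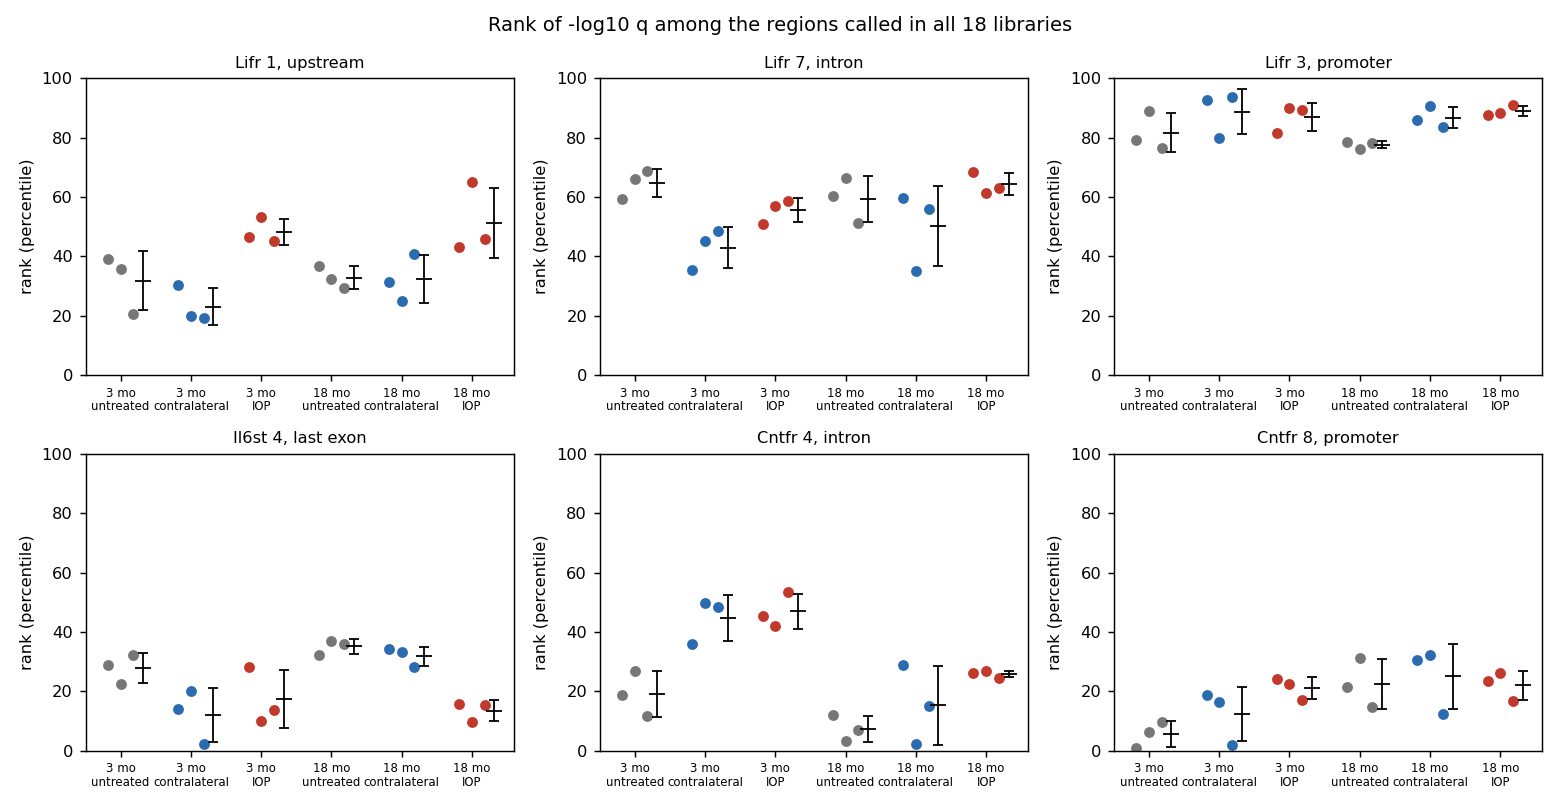
Rank (percentile of −log10 q among the 24751 regions called in all 18 libraries) of 6 member regions in each retina (points) with the mean and SD of the 3 retinas of a group (bars), grey for untreated, blue for contralateral and red for IOP. At Lifr 1 the 6 IOP retinas lie between 43.2 and 64.9, all above the 12 control retinas, whereas the Lifr promoter Lifr 3 shows no such shift.

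The IOP difference was not the same at both ages for Il6st 4 and Cntfr 9. Il6st 4, in the last exon of the gp130 gene, ranked at 34.1, 33.2 and 28.2 in 18mo contralateral retinas and at 15.6, 9.48 and 15.3 upon IOP, whereas at 3 months it ranked at 14.1, 20 and 2.19 and at 28.3, 10.1 and 13.8. The IOP difference was −18.4 at 18 months and 5.3 at 3 months, and these differed by −23.7 (exact permutation within ages, p = 0.03). For Cntfr 9 the differences were 8.27 and −5.15, which differed by 13.4 (p = 0.015, exact), at a low rank of 1.07 to 15.3 in all libraries. Taken with its sign, the IOP difference was larger at 18 months in 1.34% of all regions and larger at 3 months in 1.64% at this threshold. By sign, Cntfr 9 falls under the first share and Il6st 4 under the second. After adjustment both member values stood at p = 1.0 (permutation).

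To ask about natural aging, the 6 control retinas of 18 months were compared with the 6 of 3 months. None of the 3 member regions that could reach a p under 0.05 passed: Lifr 6 was called in 4 of 6 against 1 of 6 (p = 0.242, Fisher's exact test), Osmr 3 as given above, and Osmr 1 in 3 of 6 against 4 of 6 (p = 1.0, exact). Of all 9868 testable regions, 3.19% were called more often at 18 months and 0.385% at 3 months at an unadjusted p under 0.05. The number of peaks per window passed for 0 of 8 members, beside 1.72% of 15325 genes with more peaks at 18 months and 0.209% with more at 3 months. Summed over the 10 windows, the control retinas held 25.0 ± 2.28 peaks at 18 months and 23.2 ± 5.15 at 3 months (SD, n = 6 each), and the groups overlapped.

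In the ranks, 2 of the 14 member regions were higher at 18 months and 1 was lower at an unadjusted p under 0.05, beside 4.37% and 3.77% of all regions. None passed the adjustment. Cntfr 8, the promoter of the CNTF receptor gene, ranked at 12.4, 14.6, 21.6, 30.4, 31.2 and 32.3 in the 18-month-old controls and at 1.03, 1.77, 6.36, 9.77, 16.3 and 18.6 in the 3-month-old controls (23.8 ± 8.84 against 8.98 ± 7.34, difference 14.8, p = 0.0173, exact permutation, adjusted p = 0.477). The 2 lowest of the 18-month-old values overlapped the 2 highest of the 3-month-old values. The difference was 16.7 within untreated and 12.8 within contralateral retinas. Il6st 4 ranked at 33.5 ± 3.16 at 18 months and 20 ± 10.9 at 3 months (difference 13.5, p = 0.0108, exact; adjusted p = 0.413), with differences of 7.22 within untreated and 19.7 within contralateral retinas. The intronic Cntfr 4 went the other way, at 11.3 ± 9.92 and 31.9 ± 15.6 (difference −20.6, p = 0.0281, exact; adjusted p = 0.543), with −11.7 within untreated and −29.4 within contralateral retinas. It missed 0.05 with fold enrichment in place of −log10 q (−12.9, p = 0.0693, exact).

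In the controls, 3 receptor regions were called in every library of one control group and none of another. Lifr 9 (chr15:7169379-7169841, intron) was called in all 6 untreated retinas, in all 6 retinas of 18-month-old mice given pressure on 1 side, in 2 of 3 3mo IOP retinas and in none of the 3 3mo contralateral retinas. Its fold enrichment was 7.58, 7.01 and 10.2 in 3mo untreated, 5.95, 7.95 and 5.42 in 18mo untreated, 4.76, 4.72 and 5.18 in 18mo contralateral, 4.9, 4.93 and 3.52 in 18mo IOP and 3.12 and 3.67 in 3mo IOP retinas. At 3 months it was thus the one member region called in 3 of 3 untreated and 0 of 3 contralateral retinas, a pattern of 1.25% of all regions.

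Cntfr 1 (chr4:41665110-41665596, intron) was called in the 3 18mo contralateral retinas, with fold enrichments of 4.3, 3.83 and 4.42, in 18mo IOP replicate 2 (4.17), and in no other library. It and Lifr 9 were the 2 member regions called in 3 of 3 contralateral retinas at 18 months and 0 of 3 at 3 months, beside 1.14% of all regions. Cntfr 1 was the 1 member region called in 3 of 3 18mo contralateral and 0 of 3 18mo untreated retinas, beside 3.11%. Cntfr 6 (chr4:41694387-41695032, intron) lay 826 bp past the inner Cntfr start. It was called in all 6 contralateral and IOP retinas at 3 months (fold 2.57 to 4.09), in replicate 2 of each of these groups at 18 months (3.51 and 2.81) and in 0 of 6 untreated retinas. It was the 1 member region called in 3 of 3 3mo contralateral and 0 of 3 3mo untreated retinas, beside 0.489% of all regions. Against the 4 of 6 contralateral retinas of both ages, the 0 of 6 untreated gave p = 0.0606 (Fisher's exact test), the smallest that 4 calls allow.

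**Figure D5:**
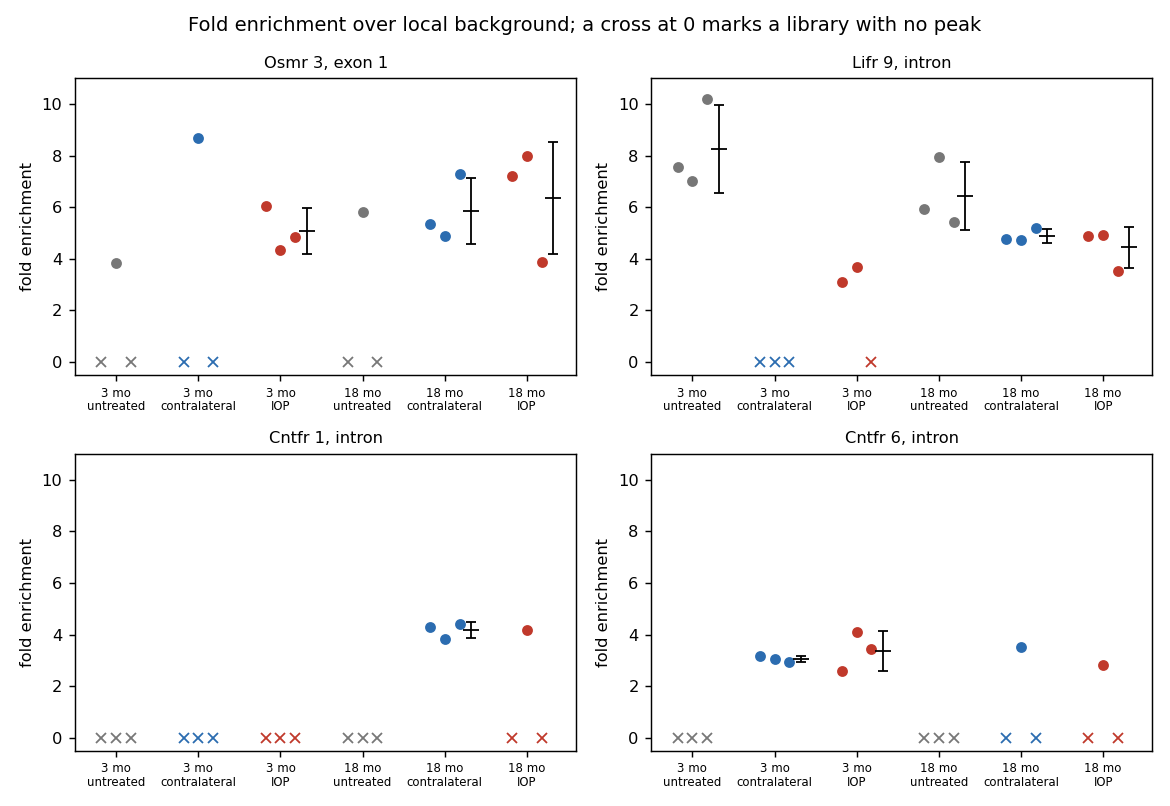
Fold enrichment of 4 regions called in some libraries, per retina (points, with the mean and SD where all 3 retinas of a group were called), and a cross at 0 for a retina with no peak. Osmr 3 has a point in all 6 IOP retinas, Cntfr 1 has points in 18mo contralateral retinas and 1 18mo IOP retina only, and Cntfr 6 has none in untreated retinas.

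The kind of control separated some regions by more than age or IOP did. Of the ranks, 3 of 14 member regions differed between the 6 untreated and 6 contralateral retinas after adjustment over all regions, of which 10.9% ranked higher in untreated and 12% higher in contralateral retinas (exact permutation). Cntfr 5 ranked at 33.0 to 66 in untreated and at 13.6 to 30.5 in contralateral retinas (difference 34.2, adjusted p = 0.0186, permutation), without overlap. Lif 1 ranked lower in untreated retinas (difference −12.3, adjusted p = 0.0186, permutation), as did Il11 2 (−17.0, adjusted p = 0.0275, permutation). The Lifr window held 11, 7 and 11 peaks in 3mo untreated and 11, 9 and 8 in 18mo untreated retinas, against 5, 7 and 5 in 3mo contralateral and 8, 6 and 8 in 18mo contralateral retinas (mean 9.5 ± 1.76 against 6.5 ± 1.38, n = 6 each, p = 0.0216, exact permutation; adjusted p = 0.302). Lifr was the 1 member of 8 at this threshold, beside 8.40% of genes with more peaks in untreated and 1.68% with more in contralateral retinas. Part of the Lifr difference was 1 region counted as 2 peaks. Lifr 3 held 2 peaks in each of the 6 untreated and 1 in each of the 6 contralateral retinas. Lifr 7 and Lifr 9 were also split in some 3mo untreated retinas. At Lifr 2 (chr15:7123850-7124345, intron) the fold enrichment was 7.17 to 9.16 in the 6 untreated retinas and 2.65 to 4.43 in the 6 contralateral retinas, though both kinds were called throughout. In the calls, 0 of the 3 testable member regions passed, beside 5.89% of regions called more often in untreated and 5.55% in contralateral retinas. When a peak of a library had to cover 50% of a region for it to count as called, 6 of the 9 testable member regions passed after adjustment for the kind of control, all called more often in contralateral retinas. Peaks were wider there (median width 264 to 395 bp in contralateral and IOP lists against 161 to 192 bp in untreated lists), and 49.2% of the 13966 regions testable by this rule were likewise called more often in contralateral and 2.91% in untreated retinas. By the same rule, the Il6ra promoter was covered in 6 of 6 control retinas of 18 months and 1 of 6 of 3 months (p = 0.0152, Fisher's exact test; adjusted p = 0.68), beside 2.16% of regions more often covered at 18 months and 0.0716% at 3 months.

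The remaining receptor regions were not called in every library. Lifr 5 (chr15:7134417-7134824, intron) was called in 16 libraries, and its fold enrichment ran from 3.74 to 4.02 in untreated and from 2.2 to 3.07 in the other called retinas. Lifr 2 was called in 16 libraries, Il6ra 1 in 14, Osmr 1 in 9, Lifr 6 in 8 and Lifr 4 in 7. Il6ra 1 (chr3:89878418-89878858, intron) was called in 1 of 3 18mo IOP retinas and in at least 2 of 3 retinas of each other group. Osmr 4 (chr15:6883960-6884254), 9087 bp upstream of Osmr, was called in 5 libraries, which were replicate 2 of each contralateral and IOP group and replicate 5 of the 18mo untreated group. Osmr 2 (chr15:6849890-6850203, intron), the region with 2 AP-1 matches, was called in 3 libraries, all IOP retinas (3mo replicate 3, 18mo replicates 1 and 2). Against 0 of 6 contralateral retinas this gave p = 0.2 (exact, the smallest that 3 calls allow), and 0.300% of all regions were called in at least 3 IOP retinas and in no control.

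Of 23 other genes of the gp130 pathway, 13 promoters were called in all 18 libraries, 7 in none and 3 in some. Over all protein-coding genes, 51.8% were called in all 18 and 35.8% in none. Those called in all included the kinase genes Jak1, Jak2 and Tyk2, the transcription factor genes Stat3, Stat5a and Stat5b, the feedback inhibitor genes Socs1, Socs3 and Cish, and the IL-11 receptor gene Il11ra1. The 7 without a call were the ligand genes Clcf1, Ctf2, Il27, Ebi3 and Il31, the receptor gene Il31ra and the phosphatase gene Ptpn6. Ctf1 was called in 3 libraries and Il27ra in 2. In peaks per window, 1 of the 23 passed an unadjusted p under 0.05 for age, beside 1.72% of 15325 genes with more peaks at 18 months and 0.209% with more at 3 months. It was Jak1, the kinase bound to gp130, with 6.67 ± 1.37 peaks at 18 months and 4.17 ± 1.6 at 3 months (n = 6 each, p = 0.026, exact permutation; adjusted p = 1.0). For IOP 0 passed, beside 0.155% of 13532 genes with more peaks upon IOP and 1.32% with more in contralateral retinas. For the kind of control, Stat3, Pias3, Socs1 and Ptpn6 had more peaks in untreated and Stat5b more in contralateral retinas at this threshold. Of all 15325 genes, 8.40% had more in untreated and 1.68% more in contralateral retinas. None passed the adjustment (smallest adjusted p = 0.117, permutation).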

How the data were processed

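The authors made 1 peak list per library of ATAC-Seq reads (MACS2, STAR 2.7.8a and bedtools 2.29.2 are named in their processing notes, mm10), with replicates not pooled. The deposited fold enrichment is a ratio of pileup to local background, the deposited −log10 p-value and −log10 q-value belong to the summit, and the deposited score is derived from the q-value. The lists hold no read counts, so that the depth is unknown and no count model was fitted. Trimming, duplicate removal and shifting of reads are not given in the sources used here.

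Peaks overlapping by 1 bp were merged, and regions found in 2 or more libraries were kept. Calls were compared with Fisher's exact test or, for IOP, an exact conditional test stratified by age. Peaks per window and ranks were compared with exact permutation tests (924 arrangements for 6 against 6, 400 within ages), two-sided, adjusted (Benjamini-Hochberg) over all regions or genes that could reach 0.05 for calls, over all genes whose counts varied, and over all regions for ranks. With 3 against 3 the smallest p is 0.1. Starts were those of GENCODE M21 basic and, as an alternative, RefSeq (GRCm38.p6), which also gave the promoter sequences. All 10 genes were named, and regions were given by position where they were a promoter, the strongest of a gene, under an unadjusted p of 0.05, or called in all libraries of one group and none of another at 1 age; pathway genes were named where tested genes met that p or a promoter was not called in all libraries. The members and lists were chosen with earlier results of these data known, and the tests of the kind of control in ranks and windows, the test between ages in ranks, the RefSeq starts the 50% cover and the choice of the other regions and pathway genes named followed after values were seen. Some pathway genes are counted but not reported by name here. The tests were checked on simulated data. Python 3.11.15, numpy 2.4.6, pandas 2.3.3 and scipy 1.17.1 were used.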

Additional observations from a re-analysis of the deposited data

Results flagged for a closer look

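In 5 of 43 sets of 6 control retinas of 1 age, 1 retina stood far from the others by Dixon's criterion. Chance meets it in about 1 of 20 sets of continuous values. Small counts are tied, and where the others are all equal, as in the Lif and Il6 windows, any differing count meets it. The 5 of 43 therefore cannot be set against that rate. 3mo contralateral replicate 2, the longest list, held 4 peaks in the Osmr window, where the other 5 held 0 to 1, and ranked the Il6ra promoter at 24.7, where the others ranked it at 0.0646 to 6.52. At 18 months, untreated replicate 4 ranked the Il6ra promoter at 15, where the others ranked it at 1.51 to 6.15. 3mo untreated replicate 6 held 3 peaks in the Lif window where the others held 2, and 18mo untreated replicate 6 held the single peak (1) in the Il6 window.

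The IOP difference in rank differed between ages by −23.7 at Il6st 4 (p = 0.03, exact permutation), lower upon IOP in 3 of 3 retinas at 18 months, and by 13.4 at Cntfr 9 (p = 0.015, exact permutation), lower upon IOP in 3 of 3 retinas at 3 months. Neither passed the adjustment over 24751 regions.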

How the results depend on the processing

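Of 394 alternative values, 370 stayed on their side of the threshold or, for counts and values with no test, near the value given. Some of them could not move. The region calls under a rule of 50% overlap are those given, since each peak lies whole within its region. With every list reduced to its 36011 strongest peaks, the difference in summed peaks at 18 months became 1.0 (IOP minus contralateral, −1.67 as deposited), and promoters called in all libraries numbered 2 in place of 5. By RefSeq starts they numbered 3. Per 10000 peaks of a list, summed peaks were higher upon IOP by 0.61 at 3 months (pooled SD 0.24) and by 0.812 at 18 months (pooled SD 0.0777, the sign turned), and every IOP retina lay above every contralateral retina of its age. On this scale regions called in every library count for more in a shorter list, but whether list length made the gap was not tested. How often other sets of genes show such a gap is not given. With windows of 50 kb the summed difference at 3 months was 0.0. With windows of 50 kb on either side, which are wider, 1 region was gained upon IOP at 18 months, beside 0.239% of all regions. When a peak had to cover 50% of a region, an alternative chosen after seeing the data, 1 member region passed for age (2.16% of all testable regions did in this direction) and 6 for the kind of control, all 6 after adjustment (49.2%), in place of 0. The cause was not tested.

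Leaving out 1 retina at a time, member regions gained upon IOP ranged from 0 to 2 at 3 months (1 without 3mo contralateral replicate 2, 2 without 3mo IOP replicate 3) and from 0 to 2 at 18 months (2 without 18mo IOP replicate 3). Those lost at 18 months ranged from 0 to 1 (1 without 18mo IOP replicate 2), and those passing for the kind of control from 0 to 1 (1 without 18mo contralateral replicate 1 or 3). With a retina left out, fewer libraries have to be alike for a gain or loss, so the rule is looser. The shares of all regions under these settings are not given, so the counts cannot be read as changes of the members. The summed difference at 3 months ranged from 1.0 to 5.0 (5.0 without 3mo contralateral replicate 2), and that at 18 months from −3.0 (without 18mo contralateral replicate 2) to 0.333 (without 18mo IOP replicate 3), where the sign turned. The rank difference of Lifr 1 ranged from 19.1 to 24.7 and of Lifr 7 from 11 to 16.0, all past 0.05 unadjusted. The age difference of Cntfr 4 missed 0.05 without 18mo untreated replicate 5 (−18.9) or 18mo contralateral replicate 2 (−18.7, p = 0.0519 each, exact permutation).

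The labels do not say whether the replicate numbers shared by contralateral and IOP retinas pair them. Same-numbered deviations correlated at −0.0898 to 0.0974, and 3 of 6 correlated best with their own number, which cannot decide it. With the replicate block, 2 member regions passed by rank in place of 3 (Lifr 1 and Lifr 7, p = 0.0312 each, exact permutation), and 0 by calls or windows, as without it. The lists give no read depth, and a missing peak limits accessibility only to below the threshold of its library.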
